A study of Canis lupus familiaris with 15 samples.

Results

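SPOCK2, ECM2 and ADAMTSL2 encode proteins of the extracellular matrix, and their mRNA was measured in the corpus luteum (CL) of 15 dogs. They are 3 of the 23630 genes counted (identifiers ENSCAFG00000014413, ENSCAFG00000002301 and ENSCAFG00000023757), were selected by these identifiers, and all 3 passed the filter on low counts, as did 14922 genes in all. They had been picked because they differed between prepartum luteolysis and other groups of these same dogs. Their values in the contrasts with luteolysis are therefore described without a test, and only the 3 contrasts among the other groups were tested. The dogs of those groups also entered the choice, as the ones set against luteolysis. The p-values of the 3 tested contrasts are thus not wholly free of the selection.

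The CL is the gland that forms from the ovulated follicle and secretes progesterone (P4). Removal of the CL ends pregnancy in the dog. The matrix between luteal cells carries vessels and fibroblasts and stores growth factors. It is built while the gland grows and is remodelled when the gland is lost. SPOCK2 (testican-2) is a secreted proteoglycan of the SPARC family, whose members bind calcium and regulate contacts between cells and matrix. Testicans are also linked to the control of membrane-type matrix metalloproteinases. ECM2 is a matrix protein with leucine-rich repeats, related to decorin. ADAMTSL2 resembles the ADAMTS proteases but lacks their catalytic domain. It binds fibrillin microfibrils and LTBP1, a protein that stores latent TGF-beta.

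The dogs were healthy cross-breed bitches of 2 to 8 years, each in 1 group and with 1 library. Of the pregnant dogs, 5 were sampled untreated at mid-gestation, 35 to 40 days from ovulation, 5 after the antigestagen aglepristone and 3 in prepartum luteolysis. The other 2 dogs were not pregnant and were in luteal regression on day 65. Aglepristone blocks the P4 receptor. It was injected 2 times, each at 10 mg/kg with 24 h in between (days 40 to 45), and the CL were taken out a further 24 h later. Prepartum luteolysis was recognised from plasma P4, sampled every 6 h from day 58 until 3 consecutive values were low. The luteolysis, luteal regression and antigestagen groups thus differ from mid-gestation in the age of the CL as well as in its state or treatment. These cannot be told apart. Another dog in luteal regression was not analysed here.

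Total counts per dog ranged from 8558743 to 26284315. The identity of the tissue could not be checked, since none of the 12 luteal steroidogenic markers had an identifier paired with its symbol, nor had the 4 erythroid markers. A marker had an identifier only if the study listed it as differing in any of its contrasts on these same dogs. Group differences in the marker sums, here and below, are therefore not independent evidence on the tissue. Luteolysis dog 1 stood apart from the other luteolysis dogs in its leukocyte and pericyte marker sums. The summed level of 4 leukocyte markers (ITGAM, CD3E, S100A9 and LYZ, of 14 listed) was 61.5 CPM in it and 333 and 442 CPM in the others, against 31.7 to 110 CPM in the other groups. The pericyte and smooth muscle markers (TAGLN and MCAM, of 10 listed) summed to 232 CPM in this dog, to 1168 and 1219 CPM in luteolysis dogs 2 and 3, and to between 83.0 and 624 CPM elsewhere. In luteolysis LYZ made up most of the leukocyte sum, at 54.6 to 414 CPM. Unlike LYZ, the other leukocyte markers had no higher group mean in luteolysis than after antigestagen. ITGAM was at 4.5 to 25.97 CPM in luteolysis and 11.98 to 20.2 CPM after antigestagen. S100A9 was at 1.73 to 19.8 CPM in luteolysis and 7.23 to 23.1 CPM after antigestagen. CD3E had its lowest group mean in luteolysis, 0.59 ± 0.26 CPM (SD, n = 3). None of the markers with an identifier was at 0 in any dog. For mid-gestation dog 1, the title and condition give mid-gestation while its description carries the number of the antigestagen group.

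SPOCK2 was low in prepartum luteolysis and at a similar level in the other 3 groups. Values are TMM-scaled CPM, the reads of a gene in proportion to all reads of its library. In luteolysis dogs 1 to 3 SPOCK2 was at 22.5, 26.8 and 20.0 CPM. At mid-gestation it was at 64.6, 48.3, 85.6, 49.5 and 68.3 CPM in dogs 1 to 5. After antigestagen it was at 60.5, 47.9, 84.4, 112 and 82.7 CPM, and in luteal regression at 53.7 and 69.4 CPM. Every luteolysis dog was thus below all 12 other dogs, whereas the other 3 groups overlapped each other. The group means ran from 77.4 ± 24.5 CPM after antigestagen (SD, n = 5) through 63.3 ± 15.3 at mid-gestation (SD, n = 5) and 61.6 ± 11.1 in luteal regression (SD, n = 2) to 23.1 ± 3.44 in luteolysis (SD, n = 3). The first 3 neighbours in this order did not differ beyond their spread. The luteolysis dogs lay close together: their SD of log2 CPM was 0.21, and 20.8% of the genes in the fit had a smaller one in this group.

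ADAMTSL2 had the same order of luteolysis against the rest. It was at 3.90, 9.01 and 3.94 CPM in luteolysis dogs 1 to 3. At mid-gestation it was at 15.5, 17.8, 12.7, 29.5 and 19.6 CPM, after antigestagen at 14.6, 14, 27.4, 13.7 and 16.3 CPM, and in luteal regression at 15.5 and 12.1 CPM. Again all 3 luteolysis dogs were below the 12 others, and luteolysis dog 2 was well above its 2 group mates. Group means were 19.04 ± 6.42 CPM at mid-gestation (SD, n = 5), 17.2 ± 5.79 after antigestagen (SD, n = 5), 13.8 ± 2.43 in luteal regression (SD, n = 2) and 5.62 ± 2.94 in luteolysis (SD, n = 3). The first 3 of these means lay within each other's spread. The luteolysis dogs were more scattered than for SPOCK2, with an SD of log2 CPM of 0.68, and 75.7% of genes had a smaller one.

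ECM2 followed another order, with its highest mean in luteal regression. The regression dogs were at 142 and 122.03 CPM. At mid-gestation ECM2 was at 137, 44.2, 82.8, 82.8 and 97.5 CPM in dogs 1 to 5, and after antigestagen at 87.6, 86.9, 75.0, 42.0 and 43.9 CPM. In luteolysis it was at 51.3, 76.8 and 33.6 CPM. Luteolysis dog 2, at 76.8 CPM, was above 3 of the 5 antigestagen-treated dogs, and mid-gestation dog 1 lay between the regression dogs. Means fell from 132 ± 14.03 CPM in luteal regression (SD, n = 2) to 88.9 ± 33.5 at mid-gestation (SD, n = 5), 67.1 ± 22.6 after antigestagen (SD, n = 5) and 53.9 ± 21.7 in luteolysis (SD, n = 3). Each group in this order overlapped with the next. At mid-gestation the highest dog was 3.1-fold above the lowest. There the SD of log2 CPM was 0.59, while the median over all genes was 0.34 and 76.1% of genes had a smaller one.

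**Figure D1:**
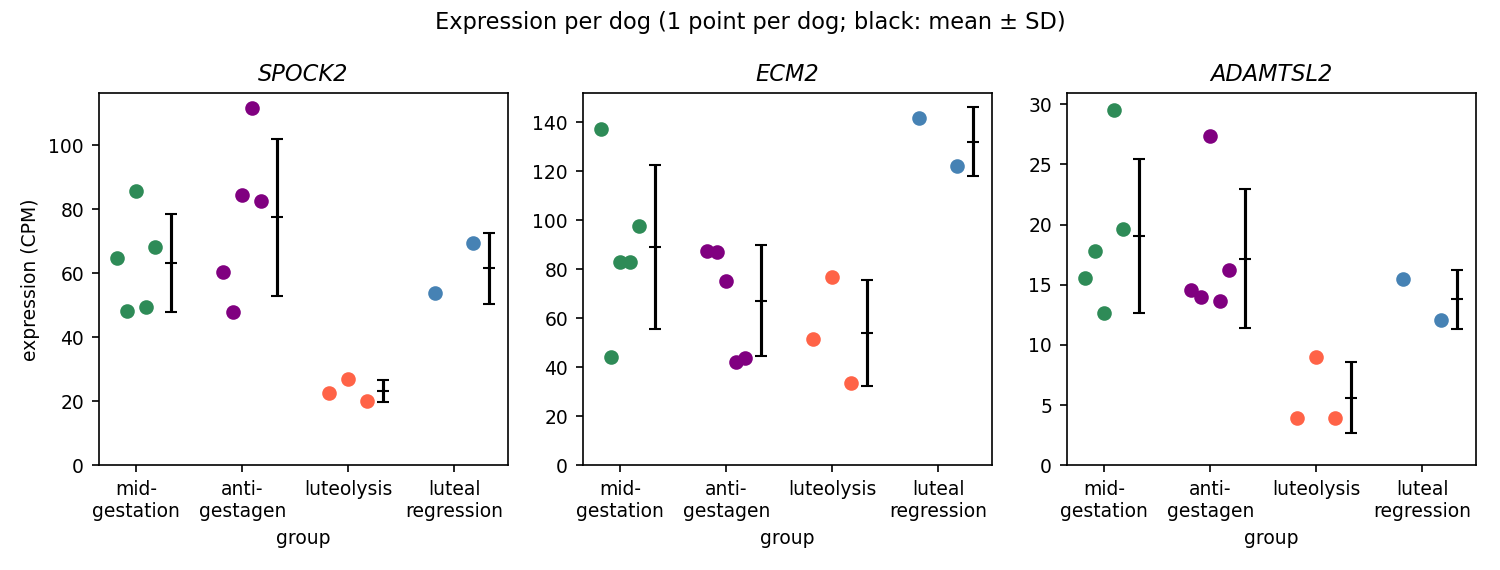
Expression of SPOCK2, ECM2 and ADAMTSL2 in TMM-scaled CPM (vertical axis from 0) for each of the 15 dogs by group (1 point per dog, black bars mean ± SD). The 3 luteolysis dogs sit below all others for SPOCK2 (20.0 to 26.8 CPM) and ADAMTSL2 (3.90 to 9.01 CPM), whereas for ECM2 they overlap with mid-gestation and antigestagen and the regression dogs are at 122.03 and 142 CPM.

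Counting error was small beside these differences. The lowest count was 300 reads for SPOCK2 (95% Poisson interval 267 to 336) and 52 reads for ADAMTSL2 (38.8 to 68.2), both in luteolysis dog 1, and 435 reads for ECM2 (395 to 478) in antigestagen dog 5. These intervals cover counting error only. Levels are not compared between the 3 genes, because gene lengths were not used. In such whole-tissue samples, fewer cells of a type and less RNA per cell cannot be told apart.

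SPOCK2 and ECM2 have overlapping neighbours that may matter for the counts, since the library kit does not mark the strand of a read. In the RefSeq annotation of the dog assembly UU_Cfam_GSD_1.0, ECM2 lies within the span of CENPP, a kinetochore gene, with ASPN, OMD and OGN, which encode small leucine-rich proteoglycans, next in line. SPOCK2 overlaps ASCC1 there. Whole gene spans were compared, not the exons of the CanFam3.1 annotation in which the reads were counted. Reads of overlapping genes cannot be told apart by strand, so the part of such reads in the SPOCK2 and ECM2 counts was not tested. No overlapping protein-coding gene was found for ADAMTSL2, which stands between MYMK and FAM163B.

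The contrast “mid-gestation over antigestagen” compares the CL of pregnancy without and with P4 receptor blockade, at days 35 to 40 and 40 to 45. None of the 3 genes was a differentially expressed gene (DEG), defined as a p-value below 0.01 with an adjusted p-value below 0.1 in edgeR's quasi-likelihood F-test with Benjamini-Hochberg adjustment. In this contrast 0% of 14399 genes tested were DEG, while 980 had an unadjusted p-value below 0.05 and DESeq2 called 85. SPOCK2 had a log2 ratio of −0.29 (SE 0.22, 95% interval −0.76 to 0.18, adjusted p = 0.838 in edgeR). For ECM2 the log2 ratio was 0.41 (SE 0.30, interval −0.23 to 1.05, adjusted p = 0.830 in edgeR), and for ADAMTSL2 it was 0.15 (SE 0.29, interval −0.47 to 0.77, adjusted p = 0.954 in edgeR). The intervals do not exclude a SPOCK2 level 0.76 lower or an ECM2 level 1.05 higher at mid-gestation on the log2 scale. Leaving out 1 dog could move each of these estimates by over 1.5 times: SPOCK2 came to −0.13 without antigestagen dog 4, ECM2 came to 0.20 without mid-gestation dog 1, and ADAMTSL2 turned to −0.05 without mid-gestation dog 4 and came to 0.38 without antigestagen dog 3. ECM2 was low in antigestagen dogs 4 and 5 (42.0 and 43.9 CPM), in which SPOCK2 was at 112 and 82.7 CPM.

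“Luteal regression over mid-gestation” compares the late CL of the non-pregnant cycle with the CL of established pregnancy. Again none of the 3 genes was a DEG, nor was any of 14685 genes tested (0%), with 2073 genes at an unadjusted p-value below 0.05 and 332 DEG by DESeq2. The log2 ratio of SPOCK2 was −0.04 (SE 0.29, interval −0.66 to 0.58, adjusted p = 0.960 in edgeR), and its sign turned without luteal regression dog 1 (0.13) or mid-gestation dog 3 (0.12). ECM2 had a log2 ratio of 0.57 (SE 0.39, interval −0.25 to 1.39, adjusted p = 0.491 in edgeR). ADAMTSL2 had a log2 ratio of −0.47 (SE 0.39, interval −1.30 to 0.37, adjusted p = 0.576 in edgeR) and came to −0.23 without mid-gestation dog 4.

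In “luteal regression over antigestagen”, ECM2 showed the largest of the 9 tested log2 ratios of these genes. Both regression dogs (142 and 122.03 CPM) were above all 5 antigestagen-treated dogs (42.0 to 87.6 CPM), with a log2 ratio of 0.98 (SE 0.38, interval 0.17 to 1.79). It was no DEG in edgeR (adjusted p = 0.235), and it was the only 1 of the 9 tested differences with an unadjusted p-value below 0.05. As background, 29.7% of the 14578 genes tested had groups that did not overlap in this contrast. Of these genes 0% were DEG, 2496 had an unadjusted p-value below 0.05 and DESeq2 called 918, none of them a member of the 3. SPOCK2 (log2 ratio −0.33, SE 0.29, interval −0.96 to 0.30, adjusted p = 0.563 in edgeR) and ADAMTSL2 (log2 ratio −0.32, SE 0.39, interval −1.15 to 0.51, adjusted p = 0.682 in edgeR) had overlapping groups. Without antigestagen dog 4 the log2 ratio of SPOCK2 was −0.13, and without antigestagen dog 3 that of ADAMTSL2 was −0.08.

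The contrasts with luteolysis served to choose the genes and are given as a description. They share the 3 luteolysis dogs. In “luteal regression over luteolysis” all 3 genes were higher in regression with groups that did not overlap, by 2.66-fold for SPOCK2 (log2 ratio 1.41, SE 0.31), 2.45-fold for ECM2 (1.29, SE 0.43) and 2.43-fold for ADAMTSL2 (1.28, SE 0.42). Of 14768 genes tested here, 5.11% were DEG and 38.1% had groups that did not overlap. In “mid-gestation over luteolysis” SPOCK2 was 2.74-fold higher at mid-gestation (1.45, SE 0.27) and ADAMTSL2 3.36-fold (1.75, SE 0.36), both without overlap. ECM2 was 1.65-fold higher (0.72, SE 0.35), with mid-gestation dog 2 within the range of luteolysis. Of 14669 genes 8.16% were DEG and 9.76% did not overlap. In “luteolysis over antigestagen” SPOCK2 was 3.35-fold and ADAMTSL2 3.03-fold higher after antigestagen (log2 ratios −1.74, SE 0.27, and −1.60, SE 0.36), again without overlap. ECM2 was 1.24-fold higher there (−0.31, SE 0.35), with overlap. Of 14473 genes 4.75% were DEG and 7.74% did not overlap.

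All 9 of these differences kept their direction without luteolysis dog 1. Without it the log2 ratios of SPOCK2 were 1.43, 1.43 and −1.71 in the same 3 contrasts, those of ADAMTSL2 were 1.12, 1.55 and −1.40, and those of ECM2 were 1.29, 0.69 and −0.29. The ratios of SPOCK2 kept within 1.21 and 1.58 in “luteal regression over luteolysis” whichever dog was left out. ADAMTSL2 was more sensitive to luteolysis dog 2, the highest of its group, without which the log2 ratio to antigestagen was −2.13. For ECM2 the log2 ratio to antigestagen was −0.09 without luteolysis dog 3 and −0.66 without luteolysis dog 2, and the “mid-gestation over luteolysis” ratio was 0.49 without luteolysis dog 3.

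**Figure D2:**
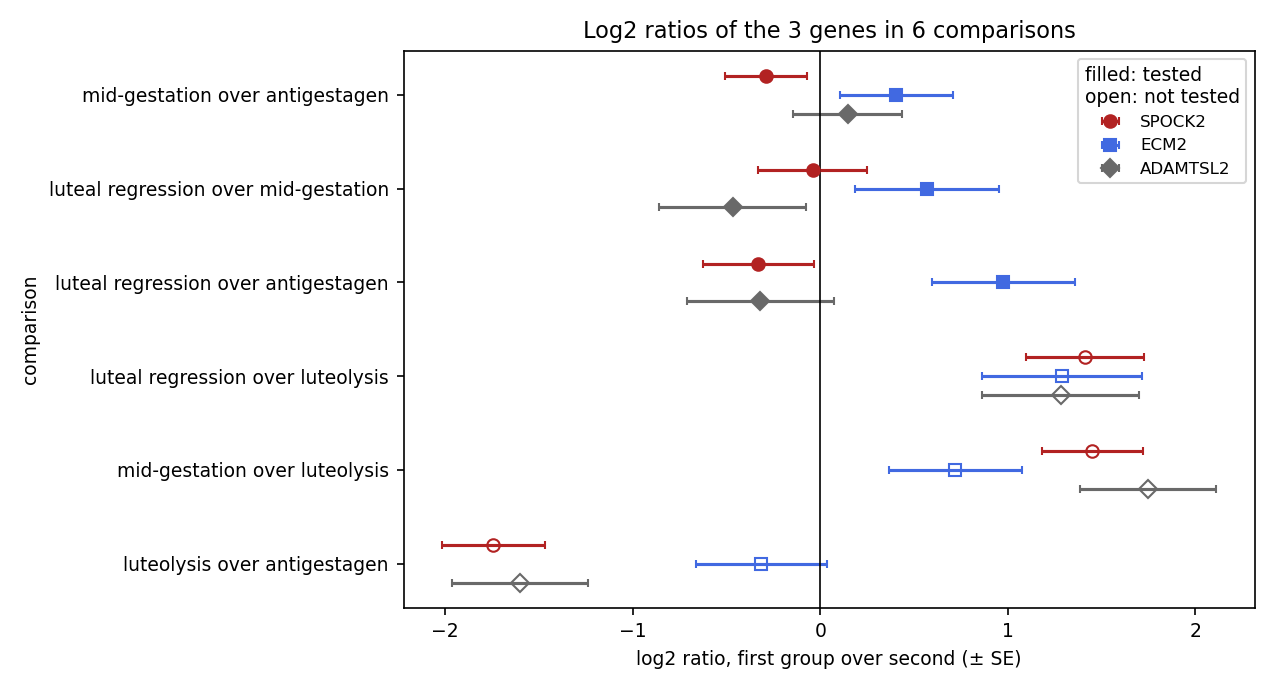
Log2 ratios (first group over second, horizontal axis, bars ± SE) of the 3 genes in the 6 contrasts, filled where tested and open where the contrast chose the genes. SPOCK2 and ADAMTSL2 lie between −0.47 and 0.15 in the tested contrasts and at 1.28 or beyond in size in those with luteolysis, while ECM2 has 0.98 in luteal regression over antigestagen and −0.31 in luteolysis over antigestagen.

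No correlation among the 3 genes was detected within groups. After each group mean was subtracted from log2 CPM over the 15 dogs, Pearson's r was −0.09 for SPOCK2 and ECM2 (exact permutation p = 0.783), −0.04 for SPOCK2 and ADAMTSL2 (exact permutation p = 0.886) and 0.27 for ECM2 and ADAMTSL2 (exact permutation p = 0.410). Spearman's rho was 0.00, −0.01 and 0.25 (exact permutation p = 0.995, 0.947 and 0.423). All orders of the dogs within their groups were enumerated, and the tests were two-sided. Without the 2 dogs farthest from the median of the first gene, once group means were subtracted, r was 0.30, −0.06 and 0.42. Together with the markers below, 15 such correlations were computed, and the adjusted p of these 3 was 0.908 each for r and 0.995 for rho.

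Of the correlations with cell type markers, that of ECM2 with fibroblast markers was the highest. The sum of 5 of 8 listed markers (PDGFRA, FAP and the collagens COL1A1, COL1A2 and COL3A1) was between 3718 and 14955 CPM at mid-gestation, 3386 and 9257 after antigestagen, 2068 and 4747 in luteolysis, and was 5405 and 7071 CPM in the regression dogs. The collagens made up most of the sum in each group. FAP, a protease of activated fibroblasts, did not follow this order of the sums: it was at 127 ± 71.8 CPM in luteolysis (SD, n = 3), 47.1 ± 6.68 at mid-gestation (SD, n = 5), 39.7 ± 9.47 after antigestagen (SD, n = 5) and 40.9 ± 4.84 in regression (SD, n = 2), and its lowest luteolysis dog, at 43.9 CPM, was within the range of the other groups. Mid-gestation dog 1 had both the highest sum and the highest ECM2 of its group, and mid-gestation dog 2 had the lowest of both. Within groups, r between ECM2 and the log2 sum was 0.81 (exact permutation p = 0.00463, adjusted p = 0.0694) and rho was 0.74 (exact permutation p = 0.00991, adjusted p = 0.110). Without the 2 dogs whose log2 sums, once group means were subtracted, lay farthest from the median, r was 0.72 (exact permutation p = 0.0327). The relation was examined after the values had been seen and did not pass 0.05 once adjusted over 15 correlations. For SPOCK2 and ADAMTSL2 r with the fibroblast sum was −0.04 and 0.42 (exact permutation p = 0.904 and 0.178).

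The next highest was that of SPOCK2 with endothelial markers. The sum of 5 of 10 listed markers (PECAM1, VWF, TEK, ROBO4 and ERG) was between 266 and 652 CPM at mid-gestation, 440 and 962 after antigestagen, 390 and 867 in luteolysis, and was 274 and 284 CPM in regression. Within groups r was 0.65 (exact permutation p = 0.0160, adjusted p = 0.12) and rho 0.66 (exact permutation p = 0.0146, adjusted p = 0.110). It was 0.79 without the 2 dogs whose log2 sums, once group means were subtracted, lay farthest from the median (exact permutation p = 0.0147). Of all dogs left out singly, antigestagen dog 4, which had the highest sum, gave the lowest r, 0.51. Between groups SPOCK2 and the sum did not go together: the luteolysis dogs had 20.0 to 26.8 CPM of SPOCK2 at endothelial sums of 390 to 867 CPM, and the regression dogs had 53.7 and 69.4 CPM at sums of 274 and 284 CPM. Single markers differed from the sum. ROBO4, a receptor of endothelial cells, was low in luteolysis like SPOCK2, at 37.5 ± 24.0 CPM (SD, n = 3) against 85.6 ± 25.8 at mid-gestation (SD, n = 5) and 104 ± 43.2 after antigestagen (SD, n = 5), but was as low in regression (34.2 ± 1.56 CPM, SD, n = 2). PECAM1 was at 228 ± 98.5 CPM in luteolysis (SD, n = 3) and 96.4 ± 40.2 at mid-gestation (SD, n = 5). The leukocyte sum gave an r of 0.08 with SPOCK2, −0.11 with ECM2 and 0.14 with ADAMTSL2, and the pericyte sum gave 0.05, 0.48 and 0.22. The part of cell composition in the group differences of the 3 genes was not tested.

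**Figure D3:**
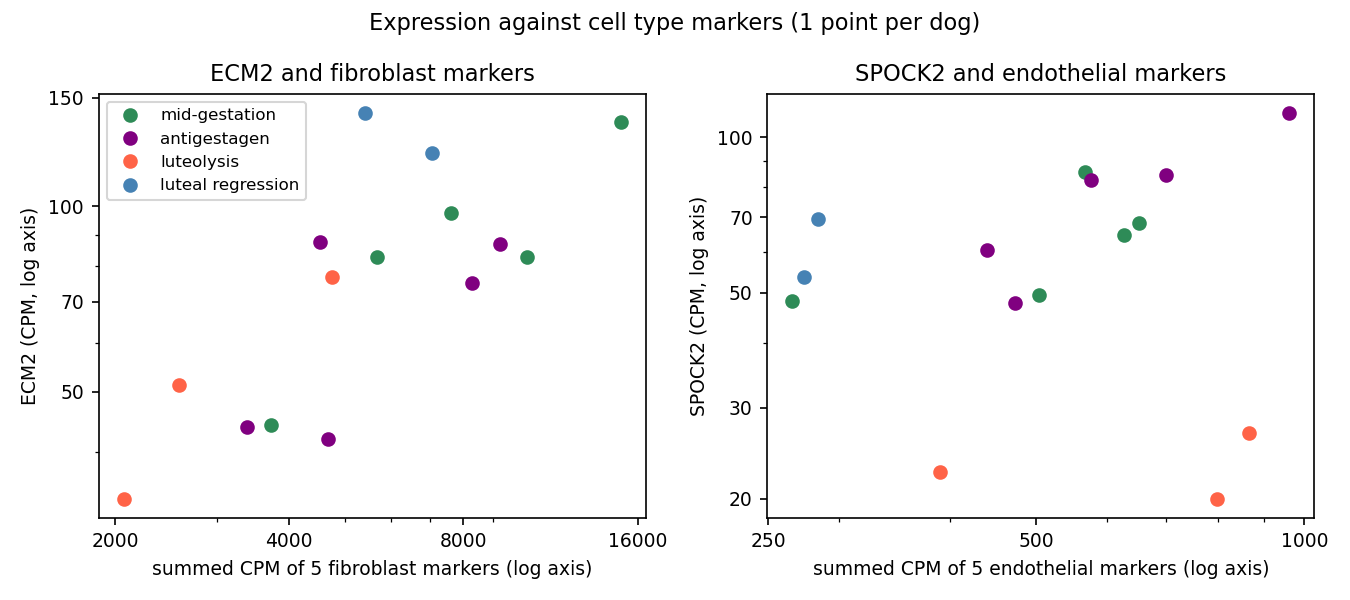
ECM2 against the summed CPM of 5 fibroblast markers (left) and SPOCK2 against that of 5 endothelial markers (right), both axes logarithmic, 1 point per dog coloured by group. In the left panel r within groups was 0.81, with the regression dogs at sums of 5405 and 7071 CPM. In the right panel the luteolysis dogs lie below the others, with 20.0 to 26.8 CPM of SPOCK2.

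The families of the 3 genes and the matrix they act on were described through 7 lists with 94 genes. Symbols could be paired with identifiers only for genes that the study listed as differing in at least 1 of its contrasts on these same dogs. This left 31 genes, 28 besides the 3, so that the counts are not independent evidence of a direction. Each DEG below was also among those listed for the same contrast: 7 of 14 in “luteal regression over luteolysis”, 16 of 23 in “mid-gestation over luteolysis” and 8 of 17 in “luteolysis over antigestagen”.

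In “mid-gestation over luteolysis” 16 of these 28 genes were DEG, 10 higher at mid-gestation (2.43% of all genes tested were) and 6 lower (5.73% of all). Their median log2 ratio was 0.71, against −0.02 over all genes. In “luteal regression over luteolysis” 7 were DEG, 5 higher in regression (1.52% of all) and 2 lower (3.58% of all), with a median of 0.41 against −0.05. In “luteolysis over antigestagen” 8 were DEG, 2 higher in luteolysis (3.12% of all) and 6 lower (1.62% of all), with a median of −0.65 against 0.02. In the 3 contrasts without luteolysis none of the 28 was a DEG in edgeR with all 15 dogs in the model. With only the dogs of the 2 groups compared, edgeR called 4 of them in “luteal regression over mid-gestation”, 3 higher and 1 lower in regression, among 770 genes in all, and 0 in the other 2. Without adjustment, p was below 0.05 for 4 of the 28 in “mid-gestation over antigestagen”, 5 in “luteal regression over mid-gestation” and 7 in “luteal regression over antigestagen”, and DESeq2 called 0, 2 and 3 of them in the same order.

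The counts depended on the model and on single dogs. With only the dogs of the 2 groups compared, edgeR called 5 of the 28 in “mid-gestation over luteolysis”, and 0 in each of the other 2 contrasts with luteolysis, where every call thus ended. With all groups in the model and without luteolysis dog 3 the 28 genes held 1 DEG in “mid-gestation over luteolysis”, the protease ADAMTS5, and 0 in the other contrasts with luteolysis. Without luteolysis dog 2 there were 7 in “mid-gestation over luteolysis” and 4 in “luteolysis over antigestagen”. Without luteolysis dog 1 there were 13 in “luteal regression over luteolysis”. Leaving out either regression dog leaves that group with 1 dog, so the counts of those fits are not given. In “luteolysis over antigestagen” 1 was called without antigestagen dog 3, 5 without antigestagen dog 5 and 15 without mid-gestation dog 2. In “luteal regression over luteolysis” 4 were called without antigestagen dog 3, mid-gestation dog 4 or mid-gestation dog 5. Without luteolysis dog 1 or antigestagen dog 1, a single gene was called in “luteal regression over antigestagen”. Of the DEG named below, ADAMTS5 in “mid-gestation over luteolysis” was called in 15 of 15 fits with a dog left out. SMOC2 in the same contrast was called in 2 of these fits. MMP2 in “luteal regression over luteolysis” was called in 5, and ADAMTS7 and BGN in “luteolysis over antigestagen” in 6 each. The 15 fits include those that leave 1 regression dog.

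Of the SPARC family, SMOC2, a calcium-binding matrix protein, and FSTL1 had an identifier besides SPOCK2. SMOC2 was at 797 ± 299 CPM at mid-gestation (SD, n = 5) and 361 ± 110 CPM in luteolysis (SD, n = 3), and was a DEG there (log2 ratio 1.14, SE 0.37, adjusted p = 0.0986 in edgeR). Unlike SPOCK2, its antigestagen-treated dogs (398 ± 149 CPM, SD, n = 5) were near the luteolysis dogs, with a log2 ratio of −0.14 in “luteolysis over antigestagen” (SE 0.36, adjusted p = 0.876 in edgeR). In regression SMOC2 was at 815 and 841 CPM, with a log2 ratio over luteolysis of 1.20 (SE 0.44, adjusted p = 0.163 in edgeR).

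Of the small leucine-rich proteoglycans, PRELP, which anchors basement membranes to connective tissue, was at 49.4 to 70.7 CPM in luteolysis, 80.4 to 398 at mid-gestation and 204 to 211 in regression. It was a DEG over luteolysis in both (log2 ratios 1.83, SE 0.40, adjusted p = 0.0235, and 1.87, SE 0.46, adjusted p = 0.0600 in edgeR). Biglycan (BGN), a collagen-binding proteoglycan, was at 148 ± 47.5 CPM in luteolysis (SD, n = 3) and 334 ± 28.6 after antigestagen (SD, n = 5), and was a DEG with a log2 ratio of −1.17 (SE 0.33, adjusted p = 0.0802 in edgeR).

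Of the ADAMTS-like proteins only ADAMTSL1 had an identifier besides ADAMTSL2. It was at 8.06 ± 1.47 CPM in luteolysis (SD, n = 3), 16.7 ± 6.49 at mid-gestation (SD, n = 5), 16.1 ± 3.19 after antigestagen (SD, n = 5) and 17.9 ± 5.28 in regression (SD, n = 2). It was a DEG in “mid-gestation over luteolysis” (log2 ratio 1.05, SE 0.31, adjusted p = 0.0696 in edgeR). In “luteal regression over luteolysis” (1.15, SE 0.37, adjusted p = 0.118) and “luteolysis over antigestagen” (−1.0, SE 0.31, adjusted p = 0.108 in edgeR) it did not pass. Among the ADAMTS proteases ADAMTS7 was at 3.42 ± 1.65 CPM in luteolysis (SD, n = 3), 12.5 ± 6.79 at mid-gestation (SD, n = 5) and 12.3 ± 6.83 after antigestagen (SD, n = 5), and was a DEG in both contrasts (log2 ratios 1.87 and −1.85). ADAMTS10, which acts on fibrillin microfibrils, was a DEG in “luteal regression over luteolysis” (1.22, SE 0.35, adjusted p = 0.0854 in edgeR).

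ADAMTS5, which cleaves aggrecan and versican, went the other way. It was at 1.11 to 8.20 CPM after antigestagen, 1.54 to 5.90 at mid-gestation and 4.46 to 9.0 in regression, but at 4.20 CPM in the lowest and 297 CPM in the highest luteolysis dog. It was a DEG in all 3 contrasts with luteolysis, with log2 ratios of −5.55 (SE 0.88) for mid-gestation, −4.67 (SE 1.25) for regression and 5.11 (SE 0.86) over antigestagen. Its lowest luteolysis dog was thus within the range of the other groups.

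Of the microfibril and elastic fibre proteins, LTBP4, which stores latent TGF-beta on microfibrils, was at 28.8 to 100 CPM in luteolysis, 92.1 to 393 at mid-gestation and 248 to 340 in regression. It was a DEG in “mid-gestation over luteolysis” (log2 ratio 2.13, SE 0.55, adjusted p = 0.0437 in edgeR) and in “luteal regression over luteolysis” (2.47, SE 0.63, adjusted p = 0.0653 in edgeR). FBLN2, fibulin-2, was at 266 ± 60.7 CPM in luteolysis (SD, n = 3) and 598 ± 172 after antigestagen (SD, n = 5), and was a DEG (−1.17, SE 0.28, adjusted p = 0.0491 in edgeR). LTBP2, a relative that binds fibrillin, was lower at mid-gestation than in luteolysis (−2.32, SE 0.63, adjusted p = 0.0528 in edgeR), so that this list held DEG in both directions.

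Of the TGF-beta genes, SMAD2, which carries the signal to the nucleus, was higher at mid-gestation than in luteolysis (1.02, SE 0.28, adjusted p = 0.0540 in edgeR). The receptor TGFBR1 was lower there (−1.26, SE 0.29, adjusted p = 0.0272 in edgeR). In luteolysis TGFBR1 was between 114 and 439 CPM, and at mid-gestation between 104 and 139 CPM, and its log2 ratio was −0.80 and no longer a DEG without luteolysis dog 3. Of the proteases and inhibitors, MMP2, a gelatinase activated by membrane-type metalloproteinases, was lower in luteolysis in all 3 contrasts: it was at 88.99 ± 22.02 CPM in luteolysis (SD, n = 3), 229 ± 72.2 at mid-gestation (SD, n = 5), 186 ± 41.3 after antigestagen (SD, n = 5) and 191 ± 0.90 in regression (SD, n = 2). Its log2 ratios were 1.36 (mid-gestation), 1.10 (regression) and −1.06 (over antigestagen). The inhibitor TIMP1 was lower in regression than in luteolysis (−3.07, SE 0.63, adjusted p = 0.0463 in edgeR). Regression had the lowest mean of TIMP1, 165 ± 40.7 CPM (SD, n = 2). The means were 833 ± 285 CPM at mid-gestation (SD, n = 5), 1313 ± 709 after antigestagen (SD, n = 5) and 1387 ± 511 in luteolysis (SD, n = 3). TIMP3, an inhibitor bound to the matrix, was higher in luteolysis than at mid-gestation (−1.95, SE 0.47) and after antigestagen (1.80, SE 0.47), at 432 CPM in the lowest and 3690 CPM in the highest luteolysis dog. Without luteolysis dog 2 the log2 ratio of TIMP3 over antigestagen was 1.18 and it was no DEG.

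**Figure D4:**
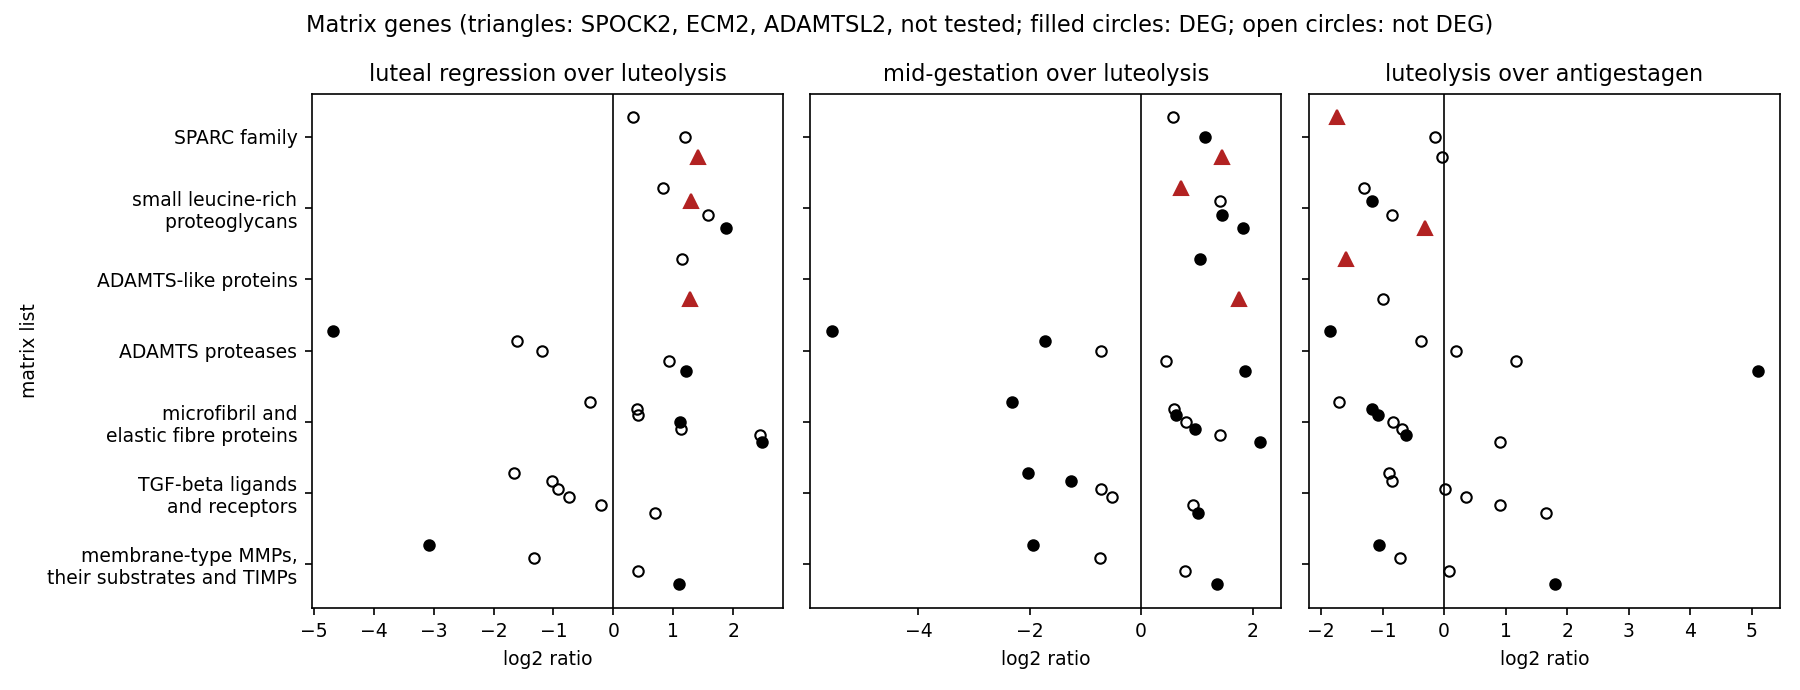
Log2 ratios (horizontal axes) of the 31 matrix genes with an identifier, by list (rows, genes ordered by value within a row), in the 3 contrasts with luteolysis. Filled circles are DEG, open circles are other genes, and triangles are SPOCK2, ECM2 and ADAMTSL2, which were not tested here. Genes of the SPARC family (3), proteoglycan (4) and ADAMTS-like (2) lists all lie on the side of higher values outside luteolysis. The 2 SPARC family genes besides SPOCK2 are near 0 in luteolysis over antigestagen, with a median of −0.09. Proteases, TGF-beta genes and inhibitors lie on both sides, with ADAMTS5 farthest from 0 at −5.55 for mid-gestation over luteolysis. All 31 genes have an identifier because the study listed them as differing on these dogs.

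The genes most like each of the 3 over all 15 dogs were sought by Pearson's r of log2 CPM among 14922 genes. This is a description, since the dogs share their groups. For SPOCK2 they were ADCY9 (r = 0.93), KIAA1210 (0.92), ADAR (0.91), CHST14 (0.91) and TBC1D9B (0.90). For ECM2 they were NEO1 (0.94), a gene without a paired symbol, FMOD (0.92), GREB1L (0.92) and NFIX (0.91). For ADAMTSL2 they were CES2 (0.91), MAPK7 (0.87), GZF1 (0.87), CHERP (0.87) and a gene without a paired symbol. Between the 3 genes r was 0.73 for SPOCK2 and ADAMTSL2, 0.41 for ECM2 and ADAMTSL2 and 0.27 for SPOCK2 and ECM2, with rho of 0.34, 0.18 and 0.11. Once group means were subtracted, the only named genes among the 5 most alike were PCDH12 for SPOCK2 (r = 0.87) and NFIX for ECM2 (r = 0.93). None was named for ADAMTSL2.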

How the data were processed

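RNA-Seq libraries of 15 canine CL were made from poly-A enriched RNA with a kit that does not mark strand and read from a single end over 125 bp. The authors aligned the reads to CanFam3.1 with STAR (2.5.1b in the submitters' processing notes), summed them over Ensembl genes with featureCounts, and deposited raw counts without normalization. The table holds 23630 genes, 4296 of them without a read, and counts from 10000 on are rounded to 4 significant digits (3148 values), which did not touch the 3 genes described.

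Groups were taken from the condition in the labels. The 14922 genes whose mean count reached 10 in any group were fitted in edgeR 4.0.16 under R 4.3.3 with TMM scaling, all 15 dogs in 1 model with a mean per group. For each contrast a two-sided quasi-likelihood F-test was run on genes reaching that mean in either group, and p-values were adjusted by Benjamini-Hochberg over all of them. DEG had p below 0.01 and adjusted p below 0.1. The SE is the absolute log2 ratio divided by the square root of F. Log2 CPM used a prior count of 2. Total counts per dog ranged from 8558743 to 26284315. Correlations were computed in Python 3.11.15.

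The 3 genes, the gene lists and the tests were chosen with earlier results of these data known. Named matrix genes are, per list and contrast, the DEG of smallest p in each direction, plus the relatives of the 3 genes with an identifier, and FSTL1 is mentioned beside them. Symbols come from the study's own lists of differing genes (2967 of the 14922 genes). The study's own fold changes and p-values in those lists were not used. RefSeq names served for neighbours only, and no sequence was used here.

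Alternatives were DESeq2's size factors, no filter on low counts, a minimum mean count of 50, only the 2 groups compared, DESeq2 1.42.0 and leaving out each dog in turn. Those for correlations and named matrix genes were chosen after seeing the data. The fit and the correlation test were tested on simulated data.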

Additional observations from a re-analysis of the deposited data

Results flagged for a closer look

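ADAMTSL2 in antigestagen dog 3 was at 27.4 CPM, while the other 4 antigestagen-treated dogs lay between 13.7 and 16.3 CPM. The gap to the nearest dog was 0.811 of the group's range, above Dixon's 95% critical value of 0.71 for 5 samples. This was 1 of 14 groups of values examined in this way, and chance alone marks about 1 in 20. The same dog was at 84.4 CPM for SPOCK2 and 75.0 CPM for ECM2, inside the range of its group for both.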

How the results depend on the processing

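None of 180 alternatives made any of the 9 tested differences of SPOCK2, ECM2 and ADAMTSL2 a DEG, and all 180 alternatives for the described differences with luteolysis kept their sign. There were 3 luteolysis and 2 regression dogs, and the lowest count of the 3 genes in any dog was 52 reads. Numbers of DEG depended on single dogs and on the model, and the cause was not tested.

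With a dog left out, the log2 ratio of SPOCK2 in “luteal regression over mid-gestation” ran from −0.24 to 0.13 and that of ADAMTSL2 in “mid-gestation over antigestagen” from −0.055 to 0.38. That of SMOC2 ran from −0.37 to 0.065 in “luteolysis over antigestagen” and from −0.080 to 0.31 in “luteal regression over mid-gestation”. For ADAMTSL1 it ran from −0.13 to 0.22 in “mid-gestation over antigestagen”, from −0.25 to 0.37 in “luteal regression over mid-gestation” and from −0.19 to 0.42 in “luteal regression over antigestagen”.

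Within-group correlations also changed sign with a dog left out. SPOCK2 ran from −0.37 to 0.10 with ECM2, −0.23 to 0.090 with ADAMTSL2, −0.27 to 0.23 with fibroblast, −0.18 to 0.12 with pericyte and −0.043 to 0.21 with leukocyte markers. ECM2 ran from −0.24 to 0.40 with endothelial and −0.29 to 0.17 with leukocyte markers, and ADAMTSL2 from −0.40 to 0.40 with leukocyte markers. ECM2 with fibroblast markers stayed between 0.74 and 0.90, and SPOCK2 with endothelial markers between 0.51 and 0.72.

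Numbers of DEG with a dog left out are given without the fits that leave 1 regression dog. They ran from 0 to 8 in “mid-gestation over antigestagen” and were 0 throughout in “luteal regression over mid-gestation”. In “luteal regression over antigestagen” they ran from 0 to 114 (0 to 1 of the 28 matrix genes). They ran from 5 to 1593 in “luteal regression over luteolysis” (0 to 13) and 112 to 2434 in “mid-gestation over luteolysis” (1 to 19). In “luteolysis over antigestagen” they ran from 6 to 2169 (0 to 15). In “luteal regression over antigestagen” 3 genes were called with DESeq2's size factors and 1 with a minimum mean count of 50.

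With only the dogs of the 2 groups compared, DEG numbered 770 in “luteal regression over mid-gestation” (4 of the 28 matrix genes), 1 in “luteal regression over antigestagen”, 0 in “luteal regression over luteolysis” (0), 422 in “mid-gestation over luteolysis” (5) and 3 in “luteolysis over antigestagen” (0). DESeq2 called 85 in “mid-gestation over antigestagen”, 332 in “luteal regression over mid-gestation” (2), 918 in “luteal regression over antigestagen” (3), 1563 in “luteal regression over luteolysis” (13) and 1481 in “luteolysis over antigestagen” (17). No paired analysis was possible because each dog was in 1 group only.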
